A study of Homo sapiens with 72 samples.

Results

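Human U2OS osteosarcoma cells without G3BP1 and G3BP2 were compared with the same knockout cells given back wild-type G3BP1, with no stress applied. The rescued group held 2 libraries from knockout cells transfected by Lipofectamine with a wild-type G3BP1 transgene and collected 24 h later. The control group held 2 libraries from untreated, untransfected knockout cells, so both groups carried the double knockout. These 4 libraries, out of 72 in the series, were chosen by their labels, and every gene row of the deposited table that compares them was used. All cells were grown in DMEM with 10% serum, and poly-A RNA was made into strand-preserving libraries. The labels name no mock-transfected group, so an effect of G3BP1 and an effect of the transfection cannot be told apart. They do not say whether the knockout line is 1 clone, what share of the cells took up the transgene, or whether the 2 libraries of a group came from separate cultures. The p-values therefore measure only the spread between these libraries, which may be technical.

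G3BP1 and its paralog G3BP2 are RNA-binding proteins that nucleate stress granules, the condensates of untranslated mRNA and protein that assemble in the cytoplasm when translation initiation stalls. G3BP1 pairs with itself, G3BP2, CAPRIN1 and USP10 through its NTF2-like domain and binds RNA through its RRM and RGG regions, and cells that lack both paralogs do not form granules after arsenite. In unstressed cells the protein is spread through the cytoplasm, and it has been linked to mRNA stability and translation, to lysosome-bound control of mTORC1 and to antiviral RNA sensing.

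The table lists 61541 genes, and 20738 of them carried enough reads to be tested. Its values can be traced back to whole reads, which were recovered for all 4 libraries and are given below after scaling to library size (normalised reads, the shallower library of each pair first). Reads in genes came to 13782901 and 14239496 in the rescued libraries and to 10793184 and 12094188 in the knockout libraries. Mitochondrially encoded genes took 6.47% and 6.61% of these reads in the rescued libraries and 7.79% and 8.47% in the knockout libraries. Of the 10 mesenchymal and osteosarcoma markers set for the labelled cell type, VIM was at 19460 and 19165 normalised reads in the rescued libraries and 15360 and 14671 in the knockout libraries, while COL1A2 stayed at or below 12.9 in all 4. Their summed level was 42568 and 42323 after rescue and 49674 and 49900 before, with 2 members called higher and 6 lower. Summed blood markers were at 178.2 and 173.0 after rescue and 380.4 and 310.8 before, nearly all of it ITGAM (157.4 and 161.5 against 363.2 and 300.3), while CD3E had no read in any library. Summed neural markers were at 459.3 and 497.0 after rescue and 840.3 and 817.3 before; NEFL (199.0 and 205.7 against 709.2 and 676.6) and MAP2 (−3.97) fell, SYP rose (255.4 and 279.7 against 51.6 and 44.7), and GFAP had no read in any library. Summed epithelial markers were at 8383 and 8096 after rescue and 8093 and 7375 before, with KRT18 higher (0.86) and KRT8 (−0.35) and CLDN4 (−1.27) lower. Summed markers of the embryonic kidney line HEK293 were at 2183 and 2112 after rescue and 2783 and 2861 before. Most of this was CDH2 (1727 and 1657 against 2339 and 2346). The part of any such other cells in the results was not tested. The endothelial marker TIE1 had 73.3 and 81.7 normalised reads in the rescued libraries and 0 and 1.90 in the knockout libraries, whereas PECAM1 stayed at or below 3.85 in all 4 and VWF was at 12.9 and 10.6 in the rescued libraries and 116.1 and 113.1 in the knockout libraries.

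G3BP1 itself (ENSG00000145907) checked which libraries carried the transgene, but reads counted per gene cannot tell its wild-type form from a deleted one. Its normalised reads were 522875 and 550009 in the rescued libraries and 3384 and 3330 in the knockout libraries, a ratio of group means of 159.8. It took 3.83% and 4.02% of all gene reads in the rescued libraries and 0.0292% and 0.0290% in the knockout libraries, which still held G3BP1 transcript. The knockout's lesion is not given in the labels, so reads in those cells say nothing about protein. G3BP2 (ENSG00000138757) had 2151 and 2125 normalised reads in the rescued libraries and 1446 and 1464 in the knockout libraries. It rose by 0.38 ± 0.08 (log2, the authors' standard error, centred z test, adjusted p = 4.78e-06); whether reads of the transgene were assigned to this paralog was not tested.

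Fold changes below are log2 values of rescue over knockout from the authors' deposited table, read relative to their median of 0.176 over the 10732 genes with a mean of at least 100 normalised reads. A gene was called when this centred value, divided by the authors' standard error, gave an adjusted p under 0.05 (z test, Benjamini-Hochberg). By this rule 3595 genes rose (17.3% of those tested) and 5175 fell (25.0%), 42.3% together. The median centred change of all genes tested was −0.20. Changes of at least 1 on the log2 scale were more often downward, with 908 genes higher (4.38%) and 2874 lower (13.9%). The split of the calls depends on the zero point. Rising genes made up 41.0% of the calls here, 54.7% of those made by the authors' own adjusted p relative to 0 (4777 higher, 3961 lower), and 31.1% when the median of genes above 1000 normalised reads (0.299) was taken. Called genes that rose had a median level of 732 normalised reads and those that fell 223, beside 117 for all genes tested. When only the 10732 genes with a mean of at least 100 normalised reads were tested, 3439 rose and 3531 fell. Counts in lists of well-expressed genes are to be read beside these as well. In bulk RNA, fewer cells that express a gene and less RNA per cell cannot be told apart.

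**Figure D1:**
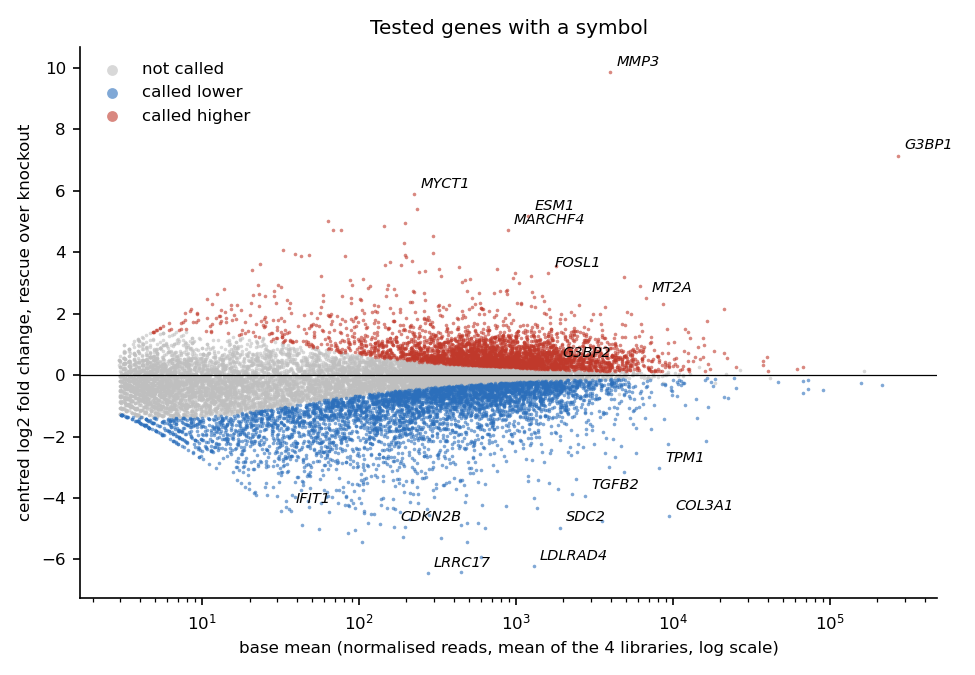
Centred log2 fold change of rescue over knockout (y axis) against the mean of the 4 libraries in normalised reads (x axis, log scale) for tested genes with a symbol; red points rose, blue points fell and grey points were not called. G3BP1 stands at the far right at 7.14 and MMP3 at the top at 9.86, while large decreases run down to −6.45 at LRRC17.

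The highest gene by fold was MMP3 (ENSG00000149968), which encodes stromelysin-1, a secreted protease of the extracellular matrix. It had 7747 and 8083 normalised reads in the rescued libraries and 1.07 and 3.80 in the knockout libraries, a centred change of 9.86 ± 0.35 (z test, adjusted p = 1.53e-176). MMP3 was near the detection limit in both knockout libraries and far above it in both rescued libraries. The deposited value is shrunken and rests on 1 and 4 knockout reads: the ratio of group means, centred alike, was 11.49 on the log2 scale, and 10.8 to 12.7 when each library was left out in turn. MYCT1 had 438.5 and 450.9 normalised reads against 3.22 and 2.85 (5.89 ± 0.40). G0S2, an inhibitor of the main triglyceride lipase, had 487 and 441.2 against 5.37 and 6.65 (5.42 ± 0.35). ESM1, a secreted proteoglycan also called endocan, had 2318 and 2345 against 58.0 and 49.4 (5.17 ± 0.16). In each of these genes both rescued libraries lay far above both knockout libraries. The other genes among the 15 highest included the ubiquitin ligase gene MARCHF4 (4.71), the ephrin receptor gene EPHB1 (4.86), the lymphocyte receptor genes CD22 (4.94) and SLAMF7 (3.98), the nuclear body gene SP140 (4.54), the pentraxin gene PTX3 (3.92), RGS4 (3.85), a brake on G-protein signalling, and ROBO4 (3.69), a guidance receptor of blood vessels. Among them, IMPDH1P10 (3.70) is a pseudogene whose reads could be shared with its parent gene.

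The lowest gene was LRRC17 (ENSG00000128606), with 1.98 and 4.81 normalised reads in the rescued libraries and 511.5 and 572.1 in the knockout libraries (−6.45 ± 0.38). LDLRAD4, whose product restrains TGF-beta signalling, had 31.7 and 38.5 against 2589 and 2527 (−6.22 ± 0.18). IGFBP5, a binding protein of insulin-like growth factors, had 22.8 and 14.4 against 1137 and 1214 (−5.91 ± 0.24). For each of these genes both rescued libraries lay far below both knockout libraries. SDC2, the cell-surface proteoglycan syndecan-2, had 135.6 and 123.0 against 3762 and 3589 (−4.96 ± 0.11). Others of the 15 lowest were IGSF10 (−6.40), the chemokine gene CXCL14 (−5.43), the glucose transporter gene SLC2A12 (−5.30), the procollagen-processing protease gene TLL1 (−5.28), the prostacyclin synthase gene PTGIS (−4.96), the sterol exporter gene ABCG1 (−4.95), the cyclin-dependent kinase inhibitor gene CDKN2B (−4.95) and the mechanosensitive channel gene PIEZO2 (−4.88). In all 30 extremes the groups did not overlap, which was also true of 77.3% of all genes tested.

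**Figure D2:**
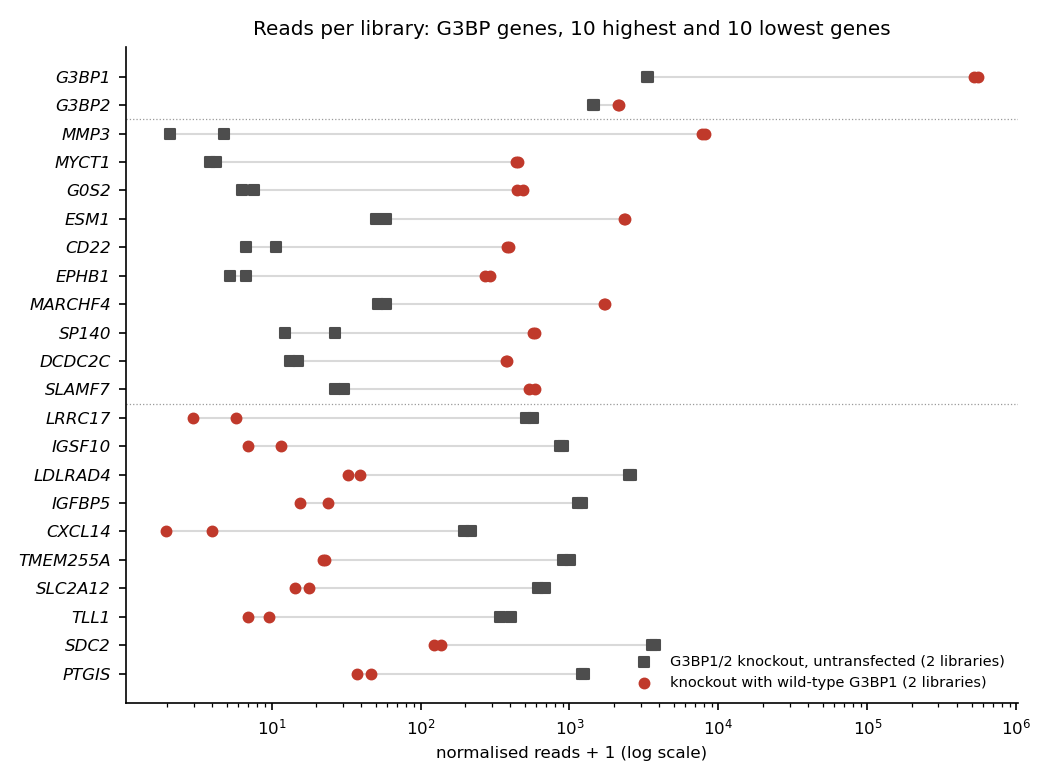
Normalised reads plus 1 on a log axis for both G3BP genes, the 10 other highest and the 10 lowest genes; squares are the 2 knockout libraries and circles the 2 rescued libraries, joined by a grey line. Libraries of a group lie close together beside the distance between groups, and MMP3 moves from under 5 normalised reads to about 8000.

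Many immediate-early genes, among them subunits of AP-1, were higher in the rescued cells. AP-1 is the family of FOS and JUN dimers that bind the DNA letters TGACTCA, and its subunits are induced within minutes of growth-factor or stress signals through MAP kinases. Of 25 immediate-early genes tested, 14 rose and 3 fell, with a median of 1.08. FOSL1, an AP-1 subunit that depends on sustained ERK activity, had 2976 and 2921 normalised reads in the rescued libraries and 254.7 and 260.4 in the knockout libraries (3.32 ± 0.10). FOSB had 135.6 and 179.8 against 19.3 and 21.9 (2.50), and JUN had 3208 and 3142 against 686.7 and 716.6 (1.99). The subunits did not move as one, since JUND fell (659.3 and 572.9 against 2119 and 1875, −1.86) and neither JUNB (0.01) nor FOS (0.66) passed the test. Outside AP-1, MYC had 6219 and 6102 against 1151 and 1214 (2.20) and EGR1 had 4381 and 4425 against 1359 and 1379 (1.50), while EGR2 fell (−1.75).

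The brakes and inputs of the same pathway also changed. Of 13 MAP kinase feedback genes tested, 9 rose and 1 fell, with a median of 1.06. DUSP5, a nuclear phosphatase of ERK, had 1696 and 1764 normalised reads in the rescued libraries and 188.0 and 146.4 in the knockout libraries (3.16 ± 0.13). The Sprouty genes SPRY2 (1.06) and SPRY4 (1.49) rose, and DUSP16 fell (−0.58). Among the EGF receptor family, 4 of 9 genes rose (44.4%) and 3 fell (33.3%), beside 17.3% and 25.0% of all genes tested. The receptor gene EGFR had 1037 and 976.7 against 168.7 and 216.7 (2.17), and its ligand gene AREG had 49.5 and 66.3 against 1.07 and 4.75 (2.93). In contrast ERBB3 (16.8 and 22.1 against 132.2 and 177.7, −2.90), ERBB2 (−1.49) and the ligand gene EGF (−1.23) fell.

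Promoters of the strongly raised genes held the AP-1 letters more often than those of other genes. In the RefSeq promoter table of GRCh38.p14 (250 bases before to 50 after the start), TGACTCA on either strand was present in 4.92% of all 27305 promoters and in 3.43% of the 12580 that matched one of the tested genes by symbol. These letters can overlap those of the antioxidant response (TGACNNNGC). Among called genes with a promoter in the table it was present in 4.15% of those that rose and 2.86% of those that fell. It was present in 52 of 664 genes raised by at least 1 (7.83%), in 17 of 116 raised by at least 2 (14.7%) and in 2.22% of those lowered by at least 2. The antioxidant response letters were present in 15.1% of tested genes and in 18.1% of those raised by at least 2. These size thresholds were chosen after the values were seen, and the shares are a description without a test. The cAMP response element TGACGTCA, which does not contain the AP-1 letters, was present in 3.12% of tested genes, 4.11% of those that rose, 2.06% of those that fell and 3.45% of those raised by at least 2.

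The 250 bases before the start are shown for 3 genes of the group of 17, picked to span surface proteins and a metal-binding protein, with the AP-1 letters (TGACTCA, or TGAGTCA on the other strand) in capitals. AMIGO2, an adhesion protein, had 3346 and 3370 normalised reads in the rescued libraries and 247.2 and 252.8 in the knockout libraries (3.55 ± 0.10); its window is chr12:47079952-47080201 on the minus strand. MT2A, a metallothionein that binds zinc and cadmium, had 11552 and 11589 against 1840 and 1750 (2.51 ± 0.05); its window is chr16:56608334-56608583 on the plus strand. PLAUR, the urokinase receptor, had 2226 and 2235 against 440.6 and 398.2 (2.22 ± 0.10); its window is chr19:43670170-43670419 on the minus strand. The letters begin 231, 104 and 186 bases before the start in AMIGO2, MT2A and PLAUR. In MT2A they are followed by gc, so the same stretch also matches the antioxidant response letters TGACNNNGC.
AMIGO2: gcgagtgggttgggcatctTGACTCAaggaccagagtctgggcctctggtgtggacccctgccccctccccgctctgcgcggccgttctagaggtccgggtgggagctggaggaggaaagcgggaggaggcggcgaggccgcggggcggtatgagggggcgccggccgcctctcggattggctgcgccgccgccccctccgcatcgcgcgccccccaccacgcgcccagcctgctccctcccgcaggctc
MT2A: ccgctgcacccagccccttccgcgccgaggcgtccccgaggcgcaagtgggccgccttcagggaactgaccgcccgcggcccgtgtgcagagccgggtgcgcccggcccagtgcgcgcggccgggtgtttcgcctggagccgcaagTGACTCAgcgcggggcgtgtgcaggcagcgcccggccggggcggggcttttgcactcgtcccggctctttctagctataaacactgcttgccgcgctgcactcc
PLAUR: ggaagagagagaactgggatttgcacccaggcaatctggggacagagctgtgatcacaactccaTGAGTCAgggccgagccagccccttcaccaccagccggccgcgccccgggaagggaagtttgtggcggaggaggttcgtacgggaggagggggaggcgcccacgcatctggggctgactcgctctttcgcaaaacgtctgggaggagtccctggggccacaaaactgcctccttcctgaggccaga

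Matrix genes changed in both directions, member by member. Matrix metalloproteinases cut collagens and other matrix proteins, and TIMPs inhibit them. Of 17 tested, 4 rose (23.5%) and 7 fell (41.2%), beside 17.3% and 25.0% of all genes tested. MMP1, the interstitial collagenase, had 112.9 and 140.4 normalised reads in the rescued libraries and none in either knockout library, at least 83.8-fold higher against a floor of 3 reads over the knockout group. MMP9, a gelatinase, had 3765 and 3628 against 732.9 and 827.8 (2.06 ± 0.08), and the inhibitor gene TIMP1 had 4170 and 4212 against 1651 and 1643 (1.17). MMP24 (43.6 and 53.8 against 447.0 and 395.3, −3.17), MMP2 (−0.89), MMP14 (−1.13) and the inhibitor gene TIMP2 (785.0 and 792.1 against 3030 and 3027, −2.11) fell. The list thus held both the gene with the largest rise of all, MMP3, and several members that fell.

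Of 31 collagen genes tested, 7 rose (22.6%) and 16 fell (51.6%), with a median of −0.69, or −0.32 among members above 100 normalised reads. COL3A1, a fibrillar chain, had 822.6 and 843.1 normalised reads in the rescued libraries and 18178 and 17657 in the knockout libraries (−4.59 ± 0.06). COL5A1 (−2.52), COL1A1 (−1.74) and COL12A1 (−1.40) fell as well. The transmembrane collagen gene COL13A1 had 193.0 and 200.0 against 18.3 and 14.3 (3.12), and COL5A3 (1.60) and COL6A3 (1.06) rose. Among integrins, the matrix receptors, 6 of 18 rose (33.3%), led by ITGA2 (1.68) and ITGA4 (1.67), and 7 fell (38.9%), led by ITGB4 (−3.52) and ITGB8 (−3.48). All genes tested gave 17.3% and 25.0%, and of the 10732 with at least 100 normalised reads 3439 rose and 3531 fell. The integrin median of −0.32 turned to 0.20 among members above 100 normalised reads. CD44, the hyaluronan receptor and a marker of the labelled cell type, had 8858 and 8902 against 838.2 and 881.0 (3.18).

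TGF-beta and BMP genes, which drive matrix deposition and bone formation, changed in both directions. Of 31 tested, 8 rose (25.8%) and 15 fell (48.4%), beside 17.3% and 25.0% of all genes tested. The ligand gene TGFB2 had 347.5 and 398.9 normalised reads in the rescued libraries and 5074 and 5101 in the knockout libraries (−3.93 ± 0.08), and TGFB3 (−3.53), BMP4 (−2.46) and the receptor gene BMPR2 (−1.89) fell. Among targets, SMAD7 (1.03) and ID3 (1.15) rose, while PMEPA1 (−1.09) and SKIL (−0.92) fell. The direction thus differed between ligands and individual targets. In the contractile list 7 of 23 rose (30.4%) and 13 fell (56.5%). Its largest changes were in TPM1 (2045 and 1899 against 14251 and 14192, −3.02) and FLNC (35629 and 34685 against 7402 and 6709, 2.14).

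Interferon-stimulated genes were lower after rescue. These genes are switched on by STAT and IRF factors after type I interferon and encode antiviral effectors. Of 32 tested, 2 rose and 25 fell, with a median of −1.29. IFIT1, which binds foreign RNA ends, had 0.99 and 0 normalised reads in the rescued libraries and 75.2 and 66.5 in the knockout libraries. With 1 read in the rescued group, the ratio of knockout over rescue was 145, with a 95% counting interval of 25.6 to 5758. IFI44L had 9.90 and 10.6 against 95.6 and 116.9 (−3.10 ± 0.41), and the poly-ADP-ribose polymerase gene PARP9 had 176.2 and 209.6 against 848.9 and 874.3 (−2.30). TRIM22 (−2.94), XAF1 (−2.69), BST2 (−2.63), USP18 (−2.55), IFI44 (−2.18) and OAS3 (−1.75) fell too. IFIT5 (0.66) and ISG20 (1.09) were the 2 that rose. Among the transcription factors of the system, STAT2 (−1.28) and IRF1 (−0.68) fell, and IRF9 (−1.16) did not pass the test.

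The interferon ligand genes that were listed had no detected transcript in either group, and other interferon genes were not looked at. IFNB1, IFNL1, IFNL2 and IFNL3 had no read in any of the 4 libraries, where a count of 0 allows up to 3 reads a library, so the interferon-stimulated genes differed between groups in which no interferon transcript of this set was detected. Of the receptor genes IFNAR2 fell (119.8 and 101.9 against 262.2 and 264.2, −1.38) and IFNAR1 (0.18) did not pass the test. Among 13 nucleic acid sensor and adaptor genes 7 fell and 1 rose. TLR3 (8.91 and 10.6 against 47.3 and 56.1, −2.12), IFIH1 (−1.35) and MAVS (−1.08) were lower, and TBK1 (0.31) was higher. RIGI (−0.96) and CGAS (−0.01) did not pass the test.

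MHC class I presentation genes, many of them interferon-responsive, followed the same direction, with 11 of 15 lower, 1 higher and a median of −0.75. PSMB9, an immunoproteasome subunit, had 30.7 and 38.5 normalised reads in the rescued libraries and 243.9 and 197.7 in the knockout libraries (−2.69 ± 0.29). The transactivator gene NLRC5 (−1.40), the peptide transporter gene TAP1 (−1.29), B2M (−0.62), HLA-C (−0.62) and HLA-B (−0.44) fell, and HLA-E rose (0.34). HLA genes are near-identical to each other, so the counting could have moved reads between them.

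The interferon response letters, GAAA and GAAA with any 2 bases between them on either strand, were present in 12 of the 20 lowered interferon-stimulated genes that have a promoter in the table (60.0%). They were present in 5 of 10 lowered MHC class I genes, in 3.65% of all promoters and in 2.83% of those of tested genes. The list is defined by interferon response, so a high share says nothing of the rescue, and the share among all genes that fell was 3.06%. Windows of 250 bases before the start are shown for 3 members that cover a large, a middle and a smaller change, with the matching letters in capitals. IFIT1 lies at chr10:89392373-89392622 and IFI44L at chr1:78620198-78620447, both on the plus strand. ISG15, a ubiquitin-like modifier with 61.4 and 70.2 normalised reads in the rescued libraries and 162.3 and 148.3 in the knockout libraries (−1.34 ± 0.28), lies at chr1:1013247-1013496 on the plus strand. Each window holds 2 matches, which overlap in ISG15 and lie apart in the others.
IFIT1: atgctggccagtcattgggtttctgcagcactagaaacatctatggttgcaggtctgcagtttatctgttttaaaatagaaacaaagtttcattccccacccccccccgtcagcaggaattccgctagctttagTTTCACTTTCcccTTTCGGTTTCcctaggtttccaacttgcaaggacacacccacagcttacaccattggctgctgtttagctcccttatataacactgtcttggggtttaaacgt
IFI44L: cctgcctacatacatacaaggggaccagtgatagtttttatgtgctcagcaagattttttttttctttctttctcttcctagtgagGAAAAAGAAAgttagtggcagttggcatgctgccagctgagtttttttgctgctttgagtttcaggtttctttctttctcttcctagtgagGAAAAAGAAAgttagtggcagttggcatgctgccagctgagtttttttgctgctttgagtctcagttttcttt
ISG15: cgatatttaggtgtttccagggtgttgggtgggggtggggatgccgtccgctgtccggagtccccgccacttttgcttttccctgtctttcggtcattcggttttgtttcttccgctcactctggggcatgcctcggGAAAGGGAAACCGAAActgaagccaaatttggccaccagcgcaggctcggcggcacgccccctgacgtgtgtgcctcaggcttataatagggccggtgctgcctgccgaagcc

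NF-kappaB targets went the other way from interferon-stimulated genes. Of 26 tested, 12 rose and 4 fell, with a median of 0.32. The cytokine gene IL11 had 290.0 and 255.7 normalised reads in the rescued libraries and 87.0 and 84.6 in the knockout libraries (1.43 ± 0.23), and CCL20 had 32.7 and 61.5 against 1.07 and 4.75 (2.59). TRAF1, a signalling adaptor, had 1335 and 1350 against 385.8 and 368.7 (1.64 ± 0.11). The feedback genes TNFAIP3 (1.12) and NFKBIE (0.85) and the subunit gene NFKB1 (0.91) rose, whereas NFKBIA (0.32) did not pass the test. BCL3 (39.6 and 44.2 against 164.4 and 173.0, −2.06) and the chemokine gene CCL2 (−1.66) fell. IL6 was near the detection limit in all 4 libraries. The NF-kappaB letters, GGG and CC with any 5 bases between them on either strand, were too common to separate promoters, at 58.0% of all and 8 of 10 raised targets.

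Stress-response genes were raised in part, in cells that had received no arsenite. Heat shock chaperones, which refold proteins, gave 20 higher and 4 lower of 26, with a median of 0.53. HSPA8, the constitutive HSP70, had 21806 and 22828 normalised reads in the rescued libraries and 8857 and 8276 in the knockout libraries (1.20 ± 0.05), and the mitochondrial chaperone gene HSPD1 had 19352 and 19783 against 9091 and 9116 (0.93). The inducible pair HSPA1A (0.47) and HSPA1B (0.58), near-identical to each other, rose less by fold, and the small heat shock genes CRYAB (57.4 and 63.5 against 412.6 and 361.1, −2.76) and HSPB1 (−1.06) fell. Heat shock letters, GAA, TTC and GAA with any 2 bases between each on either strand, were present in 5 of 19 raised and 0 of 3 lowered chaperone promoters, in 0.487% of all promoters, in 0.488% of those of all genes that rose and in 0 of 116 of those raised by at least 2. This list too is defined by its response, so its share says nothing of the rescue.

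Targets of ATF4, the transcription factor of the integrated stress response, gave 12 higher and 3 lower of 23, with a median of 0.59. PPP1R15A, the phosphatase subunit GADD34 that reverses eIF2 phosphorylation, had 2182 and 2236 normalised reads in the rescued libraries and 285.8 and 308.9 in the knockout libraries (2.69 ± 0.10). DDIT3, which encodes CHOP, had 279.2 and 289.4 against 78.4 and 76.0 (1.64), and the amino acid transporter gene SLC7A5 had 17947 and 18036 against 5752 and 5568 (1.49). The classical amino acid synthesis members did not share this, since ASNS (−0.24) and PSAT1 (0.06) did not pass the test and PHGDH fell (−1.05). Of 25 NRF2 targets, which answer oxidants, 11 rose (44.0%) and 6 fell (24.0%), beside 17.3% and 25.0% of all genes tested. HMOX1, heme oxygenase 1, had 863.2 and 901.7 against 152.6 and 173.0 (2.22 ± 0.15) and TXNRD1 rose (1.15), while NQO1 (0.09) did not pass the test and PIR fell (−1.06). Unfolded protein response genes were split, 7 higher (33.3%) and 6 lower (28.6%) of 21, with HSPA5 higher (0.77) and PDIA4 lower (−0.81). Of 5 metal-response genes 3 rose, with MT2A (2.51) ahead of MT1E (0.50) by fold and the zinc exporter gene SLC30A1 (0.53); metallothioneins are near-identical, so reads could be shared among them.

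Partners of G3BP1 in stress granules were mostly a little higher. Of 25 tested, 16 rose and 2 fell, with a median of 0.26. CAPRIN1 had 5219 and 5221 normalised reads in the rescued libraries and 3887 and 3759 in the knockout libraries (0.27 ± 0.05), and USP10 had 2256 and 2412 against 1205 and 1133 (0.82). CNBP (0.98) and PABPC4 (0.95) were the highest members. TIA1, an RNA-binding protein of the granule core, had 628.6 and 670.0 against 1373 and 1554 (−1.34 ± 0.11), and its relative TIAL1 rose (0.17). The G3BP partner genes therefore moved by far less than G3BP1.

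Genes of protein synthesis and turnover rose as groups of many small changes. The zero point matters at this size, since the median was 0.176 above 100 normalised reads and 0.299 above 1000. These lists were not set against other genes of like level. Cytosolic ribosomal protein genes gave 66 higher and none lower of 77, with a median of 0.37, and mitochondrial ribosomal protein genes gave 46 higher and 1 lower of 77, with a median of 0.48. Translation factors gave 37 higher and 2 lower of 41 (median 0.61), aminoacyl-tRNA synthetases 17 higher and 1 lower of 20 (0.64), and proteasome subunits 27 higher and none lower of 31 (0.48). RPL4 had 16018 and 16548 normalised reads in the rescued libraries and 8879 and 8588 in the knockout libraries (0.72 ± 0.04), EIF3B had 10053 and 9999 against 4448 and 4074 (1.06), and PSMB7 had 2188 and 2251 against 813.4 and 747.9 (1.32). EIF4EBP2, an inhibitor of cap-dependent initiation, was one of the 2 translation genes that fell (−0.89). Ribosomal protein genes have many processed pseudogenes, which the counting could have split reads with. Host genes of small nucleolar RNAs gave 12 higher and 1 lower of 18 (median 0.75), with SNHG15 at 636.5 and 674.8 against 230.0 and 239.5 (1.28). Of 9 genes whose products bind AU-rich elements 5 rose and none fell, with ZFP36L2 at 835.5 and 823.9 against 261.1 and 269.9 (1.45). Nuclear-encoded oxidative phosphorylation genes gave 17 higher and 8 lower of 76 with a median of 0.03. These are 22.4% and 10.5%, beside 17.3% and 25.0% of all genes tested. The 13 mitochondrially encoded genes gave 3 higher (23.1%) and 7 lower (53.8%).

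Mitotic genes and p53 targets were lower. Of 42 G2/M genes none rose and 35 fell, with a median of −0.47. KIF20A, a kinesin of cell division, had 504.9 and 524.9 normalised reads in the rescued libraries and 1369 and 1395 in the knockout libraries (−1.59 ± 0.10), and TOP2A had 2275 and 2393 against 4895 and 4923 (−1.25). CCNB1 (−0.47) and AURKA (−0.38) fell by less, and CDC20 (−0.03) did not pass the test. G1/S genes gave 17 higher and 8 lower of 45, with CCND1, cyclin D1, at 7587 and 7226 against 2139 and 2019 (1.65 ± 0.06). The kinase inhibitor gene CDKN1B fell (231.6 and 211.5 against 1114 and 940.8, −2.36). Of 26 genes of the p53 list 6 rose and 19 fell, with a median of −0.67. DDB2, a DNA damage sensor, had 266.3 and 249.9 against 928.4 and 962.7 (−2.03). GADD45A (2.56), PMAIP1 (1.14) and CDKN1A (0.30) were among those that rose. Apoptosis regulators were split, 6 higher (46.2%) and 4 lower (30.8%) of 13, with a median of 0.39. All genes tested gave 17.3% and 25.0%. BAK1 (1.04) and BCL2 (1.00) rose. BMF, a BH3-only killer protein, had 9.90 and 1.92 against 361.1 and 352.6 (−4.46).

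Most lipid synthesis genes were lower, and no listed member rose. SREBP factors drive both branches of this pathway. Of 24 cholesterol genes none rose and 18 fell, with a median of −0.81, and of 9 fatty acid genes none rose and 7 fell, with a median of −1.79. FADS2, a fatty acid desaturase, had 1062 and 1114 normalised reads in the rescued libraries and 8825 and 8495 in the knockout libraries (−3.16), and SCD, the stearoyl desaturase, had 6431 and 6703 against 25857 and 25494 (−2.14). Genes of the SREBP factors themselves fell, SREBF1 from 4646 and 4550 to 1466 and 1531 (−1.79) and SREBF2 from 4410 and 4183 to 1618 and 1575 (−1.60). INSIG1 (−1.94), which holds SREBP in the endoplasmic reticulum, fell, and HMGCS1 (0.06) did not pass the test. Fatty acid genes did not fall alike. FASN had 10463 and 9793 against 10330 and 9550, overlapping groups, and was called lower (−0.15) only relative to the median. ACLY (0.10) and ELOVL6 (−0.01) did not pass the test.

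Several developmental pathways were lower as well. Wnt genes gave 3 higher and 12 lower of 20 (median −0.96). The stem cell receptor gene LGR5 had 6.93 and 5.77 normalised reads in the rescued libraries and 176.2 and 156.8 in the knockout libraries (−4.25), and the Wnt target AXIN2 fell (−1.95), while the transcription factor gene LEF1 rose (409.8 and 428.8 against 94.6 and 106.4, 1.83). NOTCH3 had 275.2 and 246.1 against 2559 and 2420 (−3.41), and the Notch list gave 1 higher and 6 lower of 11. In the insulin-like growth factor list 6 of 7 fell, IGFBP5 the most, and IGF2R rose (0.39). Osteoblast genes, the lineage of the tumour, were split, 2 higher (25.0%) and 3 lower (37.5%) of 8, beside 17.3% and 25.0% of all genes tested. RUNX2 was at 63.4 and 70.2 against 153.7 and 176.8 (−1.41) and SPARC at 8538 and 8521 against 19414 and 20032 (−1.38). TNFRSF11B, which encodes osteoprotegerin, rose (201.0 and 251.9 against 34.4 and 40.9, 2.26). Tubulin isotypes also diverged, with TUBA1A at 110.9 and 117.3 against 966.0 and 937.0 (−3.19) and TUBA1C at 7683 and 8220 against 3789 and 3818 (0.89). The median of the YAP list (−0.09) turned to 0.09 without centring, and within it ANKRD1 (2.05) and CCN1 (1.50) rose and RBMS3 (−2.92) fell. Of 461 zinc-finger ZNF genes 53 rose and 116 fell, which are 11.5% and 25.2% beside 17.3% and 25.0% of all genes tested.

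**Figure D3:**
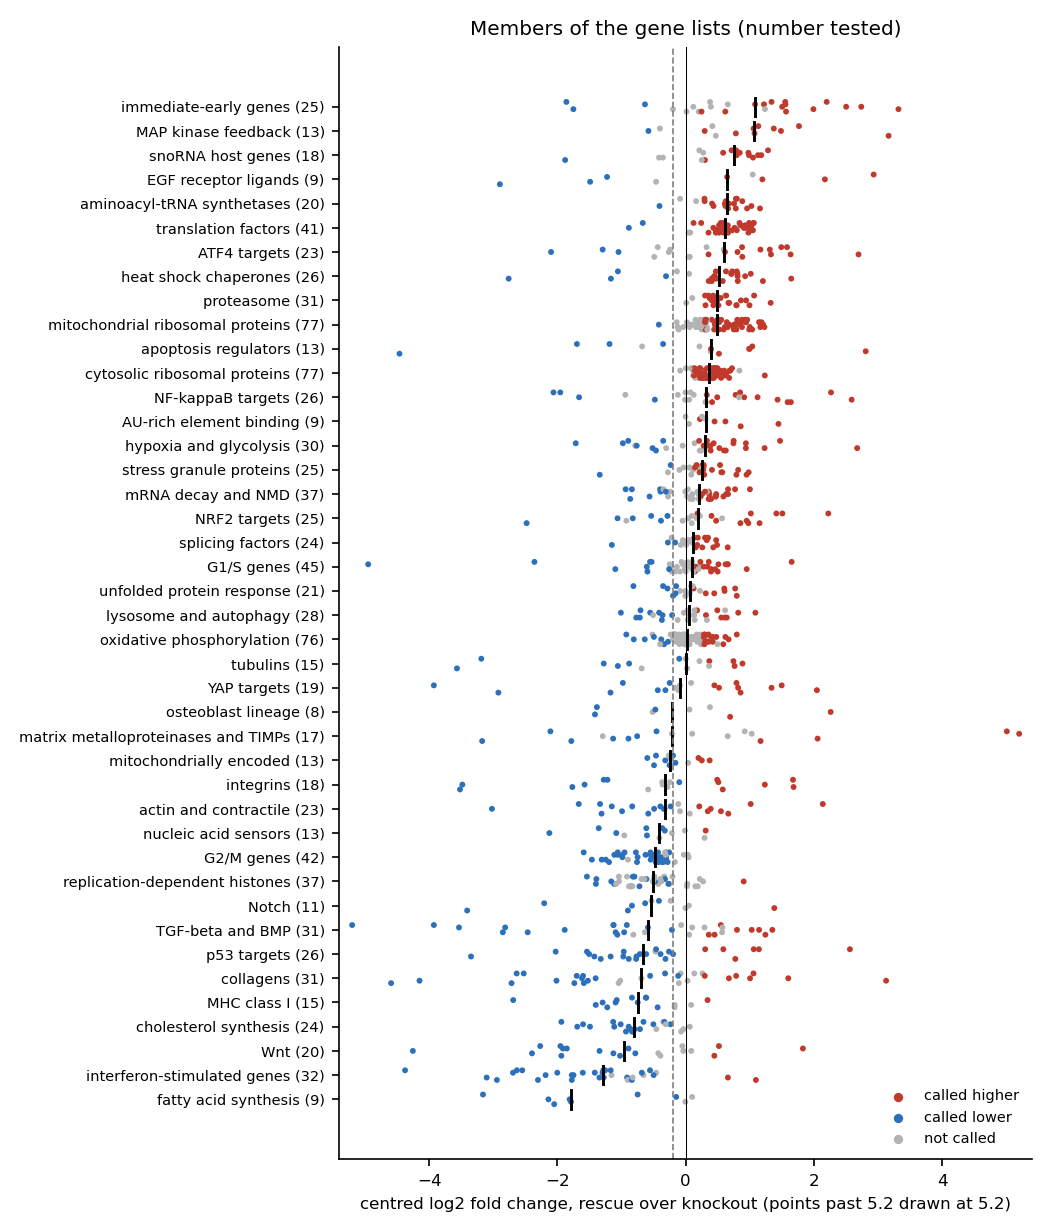
Centred log2 fold change of each tested member (points) of the gene lists with 8 to 77 members tested, one list per line with its number tested, ordered by median (black bars); points past 5.2, such as MMP3, are drawn at 5.2 and the dashed line is the median of all genes tested, −0.20. Immediate-early genes have the highest median, 1.08, with members on both sides of 0, while cytosolic ribosomal proteins form a narrow group around 0.37 and fatty acid synthesis genes have the lowest median plotted, −1.79.

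A first experiment of the same series made the same comparison in other libraries, 2 of knockout U2OS cells and 2 of knockout cells 24 h after transfection with G3BP1. Reads in genes came to 49592519 and 49353924 in its rescued libraries and 38590157 and 52470072 in its knockout libraries. There the transgene was weaker at the RNA level. G3BP1 had 20902 and 20594 normalised reads after rescue and 12819 and 12834 before, a share of 0.0437% and 0.0435% against 0.0281% and 0.0273% of gene reads. Its centred change was 0.64, and the difference of 6.50 from the present 7.14 was called. In that experiment 4309 genes rose (18.8% of 22945) and 4350 fell (19.0%), 37.7% together.

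Of 20402 genes tested in both experiments, 2248 rose in both, which is 62.8% of those that rose here and 54.1% of those that rose there. Another 2815 fell in both, 54.6% and 65.2% of the respective lists. Opposite calls were made for 197 of the genes that rose here (5.50%) and 451 of those that fell (8.75%). Over 10731 genes with at least 100 normalised reads in both, centred changes correlated with r = 0.67 (Spearman 0.63), with a standard deviation of 0.91 here and 0.48 there. The 2 experiments share no library, but the points share gene lengths and the counting, and both tables had been shrunk toward 0, the first one more strongly.

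**Figure D4:**
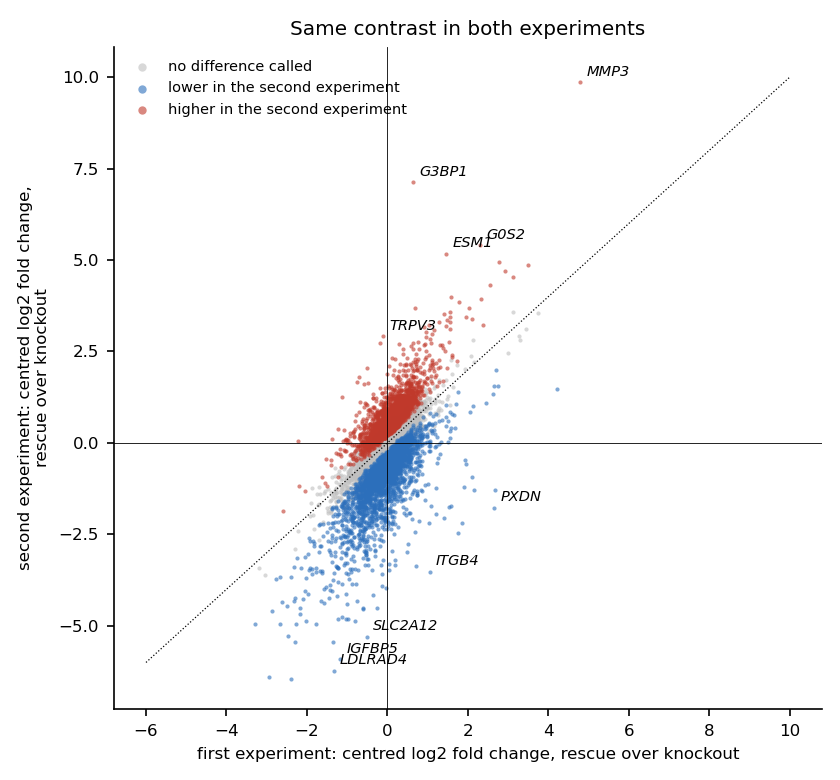
Centred log2 fold change of rescue over knockout in the first experiment (x axis) and in the present one, named the second (y axis). Each point is a tested gene with a symbol and a mean of at least 100 normalised reads in both. Colours mark genes whose 2 changes differed and the dotted line marks equal changes. MMP3 is the highest gene of the present comparison and rose in both, at 9.86 and 4.80, while ITGB4 and PXDN lie at lower right with opposite signs.

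The difference between the experiments was tested gene by gene over 16369 genes and was called for 35.7% of them, with 2335 higher here (14.3%) and 3501 lower (21.4%). Without centring the split was 3319 higher and 2782 lower. MMP3 rose in both, from 33.2 and 18.8 to 3152 and 2368 normalised reads in the first one, and its change was larger here by 5.06. Among the largest positive differences were also ESM1 (3.72), G0S2 (3.11) and the ion channel gene TRPV3, which rose here (273.2 and 277.8 against 20.4 and 35.2, 2.93) and was not called there (−0.12). LDLRAD4 fell in both (−6.22 here and −1.34 there), as did IGFBP5 (−5.91 and −1.18) and SLC2A12 (−5.30 and −0.52). Opposite directions were seen for ITGB4, an integrin of epithelial anchors, at −3.52 here and 1.05 there, and for PXDN, a collagen-crosslinking peroxidase, at −1.77 and 2.66. COL1A1 likewise fell here (−1.74) and rose there (1.59).

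Gene groups differed in how well they matched across the experiments. Cytosolic ribosomal protein genes had medians of 0.37 here and 0.30 there, with 9 of 77 differences larger here and 7 smaller, and proteasome genes 0.48 and 0.43. Other protein synthesis groups lay further apart, with medians of 0.61 and 0.36 for translation factors (20 of 41 larger here, 4 smaller), 0.64 and 0.40 for aminoacyl-tRNA synthetases (8 of 20 larger, 1 smaller) and 0.48 and 0.31 for mitochondrial ribosomal proteins (19 of 77 larger, 3 smaller). The 15 MHC class I genes had medians of −0.75 and −0.59, with 12 of 15 lower in the first experiment. Interferon-stimulated genes were lower here than there in 17 of 30 differences and higher in 1, with medians of −1.29 and −0.33. In the first experiment 16 of 35 fell and 3 rose. IFIT1, nearly absent here after rescue, was among those that rose there (0.54). Immediate-early genes had a median of 1.08 here and −0.00 there, where 10 rose and 2 fell of 24, with 12 of 23 differences larger here and 2 smaller, and for EGR1 the 2 values were 1.50 and −0.06. MAP kinase feedback genes were also higher here (8 larger and 1 smaller of 12), with medians of 1.06 here and 0.16 there. NF-kappaB targets had medians of opposite sign, 0.32 here and −0.16 there, where 3 rose and 12 fell of 25. Of 22 differences in that list 12 were larger here and 3 smaller. Mitotic genes had a median of −0.47 here and 0.15 there, with 37 of 42 differences smaller here and none larger. The p53 list had a median of −0.67 and 0.24, with 20 of 26 smaller here and 4 larger. Cholesterol genes had a median of −0.81 here and −0.09 there, with 19 of 23 smaller here and none larger. Experiment, depth and transgene level differ together between these libraries, so their parts in these differences cannot be told apart.

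**Figure D5:**
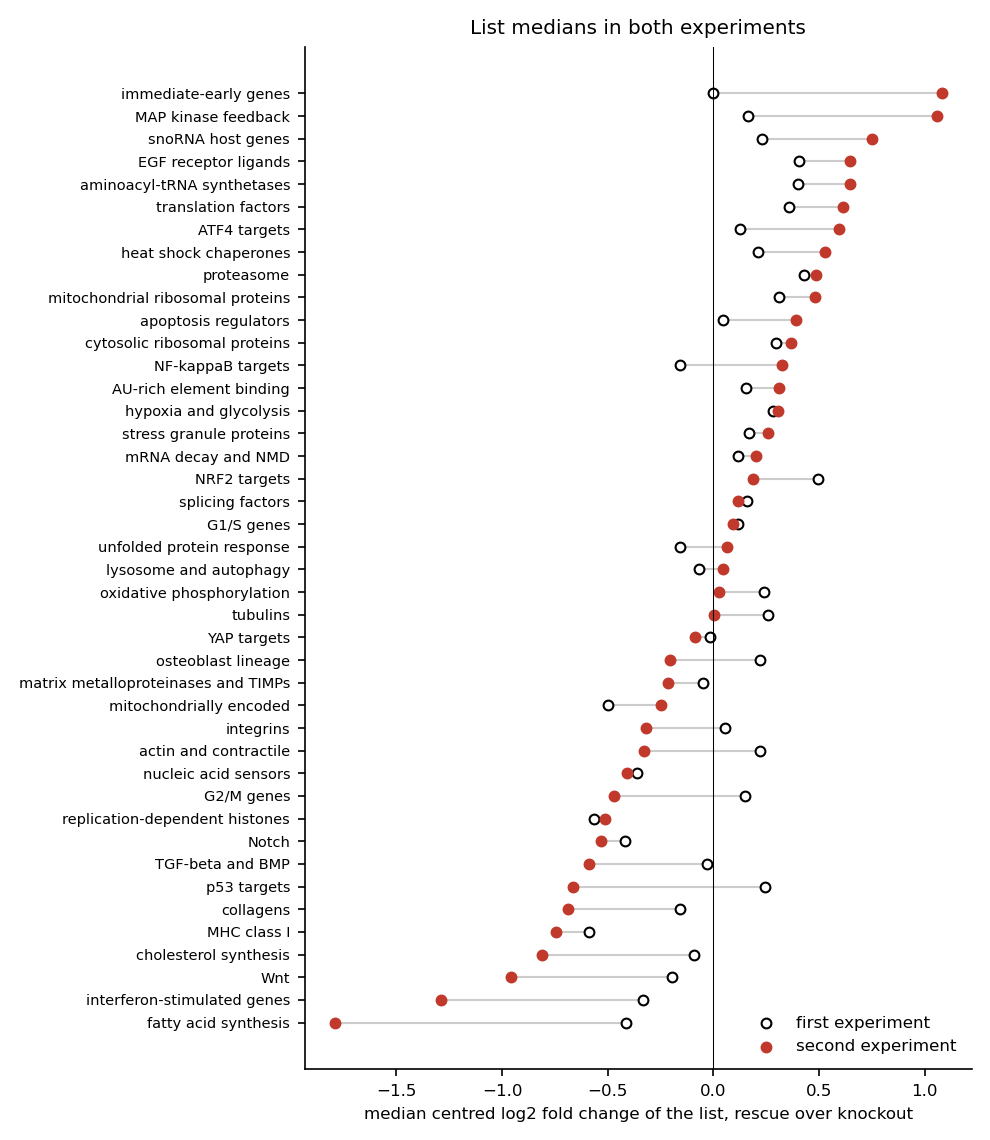
Median centred log2 fold change of each gene list for the lists with 8 to 77 members tested, in the first experiment (open circles) and in the present one, the second (filled circles), joined by a line and ordered by the present value. The proteasome and cytosolic ribosomal protein medians lie close together, and immediate-early, interferon-stimulated, p53 and cholesterol genes lie far apart.

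Rescue with G3BP1 lacking its NTF2-like domain was sequenced beside the wild-type rescue against the same 2 knockout libraries, so its values are given side by side and not compared. MMP3 stood at 9.86 with wild-type G3BP1 and 9.17 with the deletion, ESM1 at 5.17 and 4.79, and MARCHF4 at 4.71 and 4.86. LRRC17 stood at −6.45 and −5.93, LDLRAD4 at −6.22 and −5.62, and IGFBP5 at −5.91 and −5.40. G3BP1 itself stood at 7.14 and 7.58. IFIT1 stood at −4.38 and −2.85, both shrunken values that understate the ratio of its reads, and IFI44L at −3.10 and −2.54.

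Transcripts bound by G3BP1 were taken from RNA immunoprecipitation in another line, FlpIn 293 Trex cells of embryonic kidney origin in which tagged G3BP1 was induced with 1 ug/mL tetracycline for 24 h. In the authors' deposited table of 3 precipitates over 3 inputs, 14.0% of 22856 genes were enriched by at least 1 on the log2 scale with the authors' adjusted p under 0.05. Of the 2929 enriched genes tested in the rescue, 27.9% rose and 23.2% fell, with a median of 0.03. All 18321 genes tested in both gave 18.5% and 25.0%, with a median of −0.18, and the 5118 depleted genes gave 14.2% and 29.3%, with a median of −0.31. With at least 100 normalised reads in both tables the enriched genes gave 37.8% higher and 22.3% lower, beside 32.4% and 29.1% for all. Enriched genes differ from others in level, and the 2 measures correlated weakly across 9173 genes (r = 0.14). At an enrichment of at least 2, the 350 genes gave 17.7% higher and 29.1% lower. The most changed genes did not share a direction in the precipitate, with LRRC17 enriched (1.79) and LDLRAD4 depleted (−1.15) in the authors' deposited table.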

How the data were processed

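RNA-seq of 4 libraries was compared, as grouped by the labels. The authors aligned reads with STAR and compared groups with DESeq2 (listed as 2.11.40.6), per the submitters' processing notes; the genome build, the annotation and whether counting used strand are not given in the sources used here. Per the file headers, the deposited table gives a base mean (signal: reads divided by size factors, averaged over both groups), a log2 fold change with its standard error, a Wald score and a raw and adjusted p-value. The deposited log2 values had been shrunk by a normal prior of width 1.21, as the values show.

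From these, 4 summary lines (41.0% of reads) were dropped, fold changes were centred on their median where the base mean reached 100, and divided by the authors' standard error for a two-sided z test with Benjamini-Hochberg adjustment at 0.05 over 20738 genes. Whole reads per library were solved from the base means of 3 tables that share libraries, which gave whole reads for every gene with a read. Which replicate number belongs to which recovered library is not known. Intervals and floors cover counting error only. The difference from the first experiment was a z test over 16369 genes whose base mean reached 10 in each table. Gene lists are described by counts and medians. Of the Ensembl IDs, 42045 had a symbol in the name table.

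In simulated data of 20738 genes, changes of 0.5, 1.0 and 2.0 (log2) were added to 67, 66 and 67 genes. The centred test recovered 47.8%, 95.5% and 100% of these, and 3.57% of its 168 calls were false. For the difference test, over 16369 genes, the changed genes were 66, 69 and 65. That test recovered 45.5%, 91.3% and 100% of them, and 7.06% of its 170 calls were false. Simulated noise was set in advance, so these shares cannot show whether the authors' standard errors hold with 2 libraries a group. They come from few changed genes, beside 42.3% of genes called in the data, and are not split by level. limma 3.58.1 (voom, R 4.3.3) on the recovered reads was an alternative chosen after seeing the data; other steps used Python 3.11.15 with scipy 1.17.1.

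The members, lists and tests were chosen with earlier results of these data known. Genes named were G3BP1 and G3BP2, the 15 highest and 15 lowest called genes (base mean 100 or more), the 2 highest and 2 lowest called members of each list (base mean 20 or more), all members of lists of up to 12, and the 5 largest differences in each direction from the first experiment. Other genes named were chosen after their values were seen. Stressed libraries were not analysed here. Values of some listed genes are not reported here.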

Additional observations from a re-analysis of the deposited data

Results flagged for a closer look

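The rescue effect was compared between this experiment and the first one, which share no library, and the 5 largest called differences in each direction are given as differences of centred log2 fold changes (z test of the difference). The change was larger here for G3BP1 by 6.50, MMP3 by 5.06, ESM1 by 3.72, G0S2 by 3.11 and TRPV3 by 3.04. It was lower here for LDLRAD4 (−4.88), SLC2A12 (−4.78), IGFBP5 (−4.73), ITGB4 (−4.56) and PXDN (−4.43). G3BP1 transcript was raised far more here than in the first experiment, and its part in the other differences was not tested.

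The deposited table also carries a line of unmapped reads, which is no gene and entered no comparison. It held 8.38% of all reads, and its log2 fold change of rescue over knockout was 0.7659 in the authors' deposited table.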

How the results depend on the processing

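The count of 8770 genes called stayed within 1.5 times under the authors' own adjusted p (8738), another centring gene set (9046), no filter (8218), genes above a base mean of 100 (6970), a threshold of 0.01 (7166), undone shrinkage (8666) and limma-voom on recovered reads (11563, chosen after seeing the data). It moved to 2402 when each z value was divided by the robust spread of all z values, and to 3782 when a change of at least 1 was also required. Leaving out each library in turn in limma-voom gave 7266 to 10129 calls, where a lone library is assumed to vary like the other group. All 8770 calls were also made in the same direction by limma-voom. Of 227 named genes, 222 to 227 kept their sign when each library was left out in turn. None of the alternatives run on the named genes turned the sign of a called one. A reading without centring was not among these, and FASN, called lower at −0.15, stood at 0.03 before centring. With limma-voom 6 that were not called passed the test, among them IFNAR1 and IFNGR1. Differences from the first experiment fell from 5836 to 2051 when a size of at least 1 was required. Raising the immunoprecipitation threshold to 2 lowered the share of enriched genes that rose from 27.9% to 17.7%. The medians of the integrin, YAP and tubulin lists changed sign under an alternative; each was near 0 or split. No paired analysis was possible because the libraries recovered from the table carry no replicate number. With 2 libraries a group and a median standard error of 0.14 above a base mean of 100, small changes of weakly expressed genes could not be called.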
